A study of Mus musculus with 6 samples.

Results

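The genes described here are 36 members of the endoplasmic reticulum (ER) stress and amino acid stress responses. They were measured in V720, a line of mouse breast cancer cells whose tissue is labelled mammary epithelium. They were taken by gene symbol: a probe set counted when the platform annotation gave it exactly 1 symbol and that symbol was on the list. All 36 were found, on 82 probe sets, among 18193 genes on the arrays. The cells grew in DMEM with fetal calf serum and antibiotics and received either vehicle or 1 µM PD0332991 (palbociclib, an inhibitor of the cell cycle kinases CDK4 and CDK6) for 24 h. Each group held 3 Affymetrix arrays, and the design text calls the triplicates biological. The labels give no genotype for the line and name no other agent. V720 is 1 cell line, so that the arrays show the spread between cultures of that line. The epithelial keratin genes Krt8 and Krt18 averaged intensities of 9981 and 12265 on the vehicle arrays and the adhesion gene Epcam 9634.5, whereas Krt19 was at 1.

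Misfolded protein in the ER is sensed by 3 membrane proteins. IRE1 (gene Ern1) splices the mRNA of the transcription factor XBP1, ATF6 is cut loose to become a transcription factor itself, and PERK (Eif2ak3) phosphorylates the translation factor eIF2alpha. XBP1 and ATF6 together raise ER chaperones, disulfide isomerases and the ER-associated degradation machinery, which sends misfolded proteins back to the cytosol for destruction. Phosphorylated eIF2alpha slows translation in general but favours translation of ATF4, which raises genes of amino acid supply and the factor CHOP (Ddit3), and lack of amino acids reaches ATF4 through another kinase, GCN2. Secretory epithelium such as the mammary gland relies on the ER machinery for its protein output. By these roles the members were set out as an ATF4 branch of 10 genes, an ATF6/XBP1 branch of 23 and the 3 sensors. Splicing of Xbp1, phosphorylation and translation are not seen by these arrays.

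Known binding elements of these factors lie in front of many of the genes, and 6 promoters, 4 of the ATF6/XBP1 branch and 2 of the ATF4 branch, are printed to show it. RefSeq sequence (GRCm38.p6) was at hand for 32 members, without Derl1, Hyou1, Manf and Atf6, and the 250 bases before each gene start were searched on both strands. The ER stress element, read as CCAAT, then 9 bases of any kind, then CCACG, is bound by ATF6 together with the CCAAT-binding factor NF-Y. It was found in 9 of 20 genes of the ATF6/XBP1 branch (45.0%) and in none of 10 of the ATF4 branch, against 0.13% of 27025 RefSeq genes. A second form of it, ATTGG and CCACG with 1 base between them, was in Herpud1 alone among the members and in 0.037% of all genes. The C/EBP-ATF element TGATGNAA, to which ATF4 binds with a C/EBP partner, was in 4 of 10 genes of the ATF4 branch (Asns, Chac1, Nupr1 and Slc7a11) and in Herpud1, against 3.91% of all genes. The UPR element TGACGTGG was in no member and in 0.603% of all genes. No match in a member overlapped another. A match is a description of the letters and not a test of binding. The following sequences run 5′ to 3′ on the gene's strand, with the matched elements in capitals.
Hspa5, chr2:34771840-34772089, plus strand: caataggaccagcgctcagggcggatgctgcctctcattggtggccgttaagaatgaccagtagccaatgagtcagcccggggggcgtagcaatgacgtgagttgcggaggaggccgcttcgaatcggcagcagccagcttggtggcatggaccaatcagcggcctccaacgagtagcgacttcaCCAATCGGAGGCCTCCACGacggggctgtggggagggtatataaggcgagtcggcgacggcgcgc
Calr, chr8:84846932-84847181, minus strand: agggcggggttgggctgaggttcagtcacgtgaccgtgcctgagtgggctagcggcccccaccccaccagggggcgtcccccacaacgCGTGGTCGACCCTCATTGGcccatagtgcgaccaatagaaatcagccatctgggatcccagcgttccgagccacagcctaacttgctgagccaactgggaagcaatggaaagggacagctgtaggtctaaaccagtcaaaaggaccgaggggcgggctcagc
Syvn1, chr19:6046326-6046575, plus strand: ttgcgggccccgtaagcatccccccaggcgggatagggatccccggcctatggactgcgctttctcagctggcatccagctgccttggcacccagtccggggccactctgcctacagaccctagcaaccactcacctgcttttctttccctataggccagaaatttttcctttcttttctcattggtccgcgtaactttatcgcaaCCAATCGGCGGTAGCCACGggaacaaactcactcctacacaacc
Herpud1, chr8:94386179-94386428, plus strand: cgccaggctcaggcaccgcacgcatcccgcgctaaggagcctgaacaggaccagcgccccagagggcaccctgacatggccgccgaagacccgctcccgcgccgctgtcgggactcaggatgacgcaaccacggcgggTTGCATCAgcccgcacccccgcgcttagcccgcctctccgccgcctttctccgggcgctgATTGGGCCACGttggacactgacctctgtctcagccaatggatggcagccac
Asns, chr6:7693210-7693459, minus strand: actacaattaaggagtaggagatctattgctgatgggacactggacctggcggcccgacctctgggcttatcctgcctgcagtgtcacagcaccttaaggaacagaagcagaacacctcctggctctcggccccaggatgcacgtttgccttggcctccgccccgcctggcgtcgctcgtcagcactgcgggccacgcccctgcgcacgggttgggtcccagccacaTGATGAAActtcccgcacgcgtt
Nupr1, chr7:126625471-126625720, minus strand: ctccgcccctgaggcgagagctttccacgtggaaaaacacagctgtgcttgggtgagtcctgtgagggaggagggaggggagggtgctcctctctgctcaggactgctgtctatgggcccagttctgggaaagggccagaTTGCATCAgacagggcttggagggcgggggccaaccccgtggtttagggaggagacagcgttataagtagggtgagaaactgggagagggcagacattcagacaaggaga
The ER stress element of Hspa5 ends 47 bases before the gene start and that of Syvn1 26 bases before it, while Calr carries it on the other strand, between 162 and 144 bases before the start. In Asns the C/EBP-ATF element lies 23 to 16 bases before the start.

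**Figure D1:**
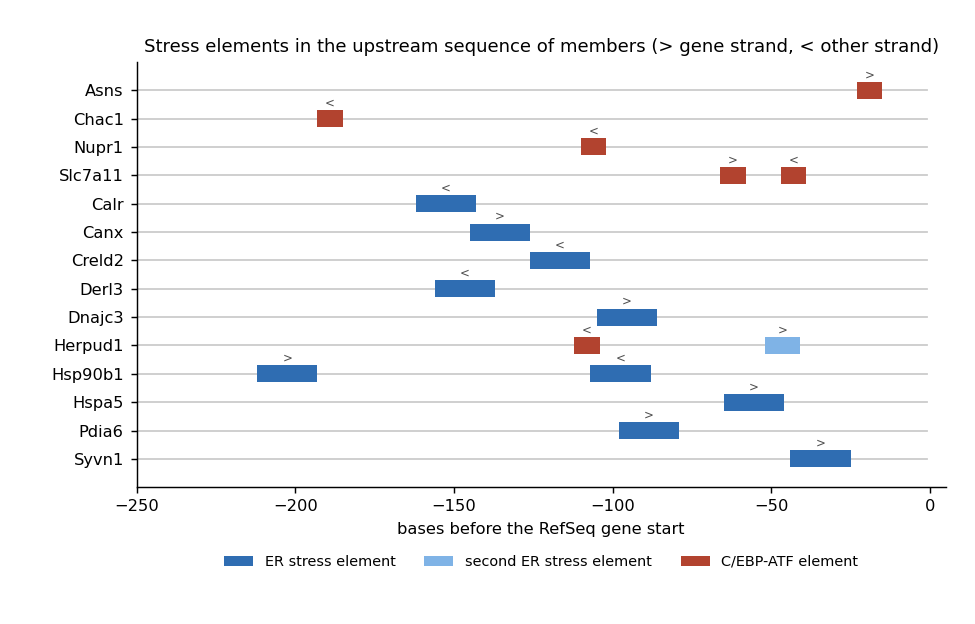
Each line is the 250 bases before the RefSeq start of a member that held at least 1 element, with the position of each match in bases before the start (x axis), coloured by element and marked by strand. ER stress elements lie in 9 genes of the ATF6/XBP1 branch and C/EBP-ATF elements in 4 genes of the ATF4 branch and in Herpud1.

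Before the members are described, a property of the arrays has to be stated. The median intensity was 71.26 to 72.74 on the vehicle arrays and 69.56 to 71.09 on the PD0332991 arrays. The hybridization spike-ins, foreign transcripts added before hybridization, averaged 9.74 (log2) on vehicle replicate 1 and 9.94 to 10.05 on the other 5 arrays. The poly-A controls, bacterial transcripts that kits add to the RNA before labelling, averaged 7.68 (log2) on vehicle replicates 1 and 3, and 8.45 on vehicle replicate 2 against 8.33 to 8.51 on the PD0332991 arrays. The ratio of the 3′ to the 5′ Gapdh probe set, a measure of transcript length in the labelled RNA, was 0.929 and 0.927 on vehicle replicates 1 and 3, 0.990 on vehicle replicate 2 and 0.980 to 1.013 with PD0332991. Vehicle replicate 2 is therefore the vehicle array whose control probe sets are nearest to those of the treated arrays, and the members are given below against it as well. What these controls contribute to the changes of the members was not tested.

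As a group the stress genes were slightly higher with PD0332991. With limma, fitted to all 18193 genes, 13 of the 36 members rose and none fell (adjusted p threshold 0.05), where 9.81% of all genes rose and 11.2% fell (21% in either direction). At an unadjusted p under 0.05, 26 members were higher and 0 lower, beside 16.4% and 16.9% of all genes. Most members are bright, and among the brighter 50% of genes 15.4% rose and 19.1% fell. The changes were small, the largest being 1.49-fold for Nupr1. In 28 members every PD0332991 array was above every vehicle array, as in 19.3% of all genes, and in none was every treated array lower, as in 19.6% of all genes. Further, 35 of 36 had a positive log2 fold change, as did 51.1% of all genes. The median log2 fold change was 0.21 in the ATF4 branch, 0.15 in the ATF6/XBP1 branch and 0.19 for the 3 sensors, against 0.0048 over all genes. On the same arrays all 9 measured proliferation genes fell, with a median log2 fold change of -1.37. In bulk RNA, more transcript per cell and more cells that carry it cannot be told apart.

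How many members pass the threshold depends on the level to which the arrays are set and on how the spread is modelled. Centred on the spike-ins, 1 member rose (Nupr1), where 1.32% of all genes rose and 8.11% fell, and with vehicle replicate 1 also left out 2 rose (Ppp1r15a and Dnajb9), where 2.26% of all genes rose and 6.37% fell. Centring on the median of each array left the number at 13, beside 10.4% of genes higher and 10.3% lower. With the replicate number as a block 7 members rose, beside 4.92% of all genes. Quantile normalization gave 18 members, beside 12.2% of all genes, a pseudocount of 64 gave 20, beside 11.9%, and an adjusted p under 0.01 left 5, beside 3.89%. A fit whose spread follows brightness (eBayes with trend and robust settings) called 27 members higher, beside 13.7% of all genes, and a fit on the brighter 50% of genes alone called 26, beside 24.9% of those genes.

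**Figure D2:**
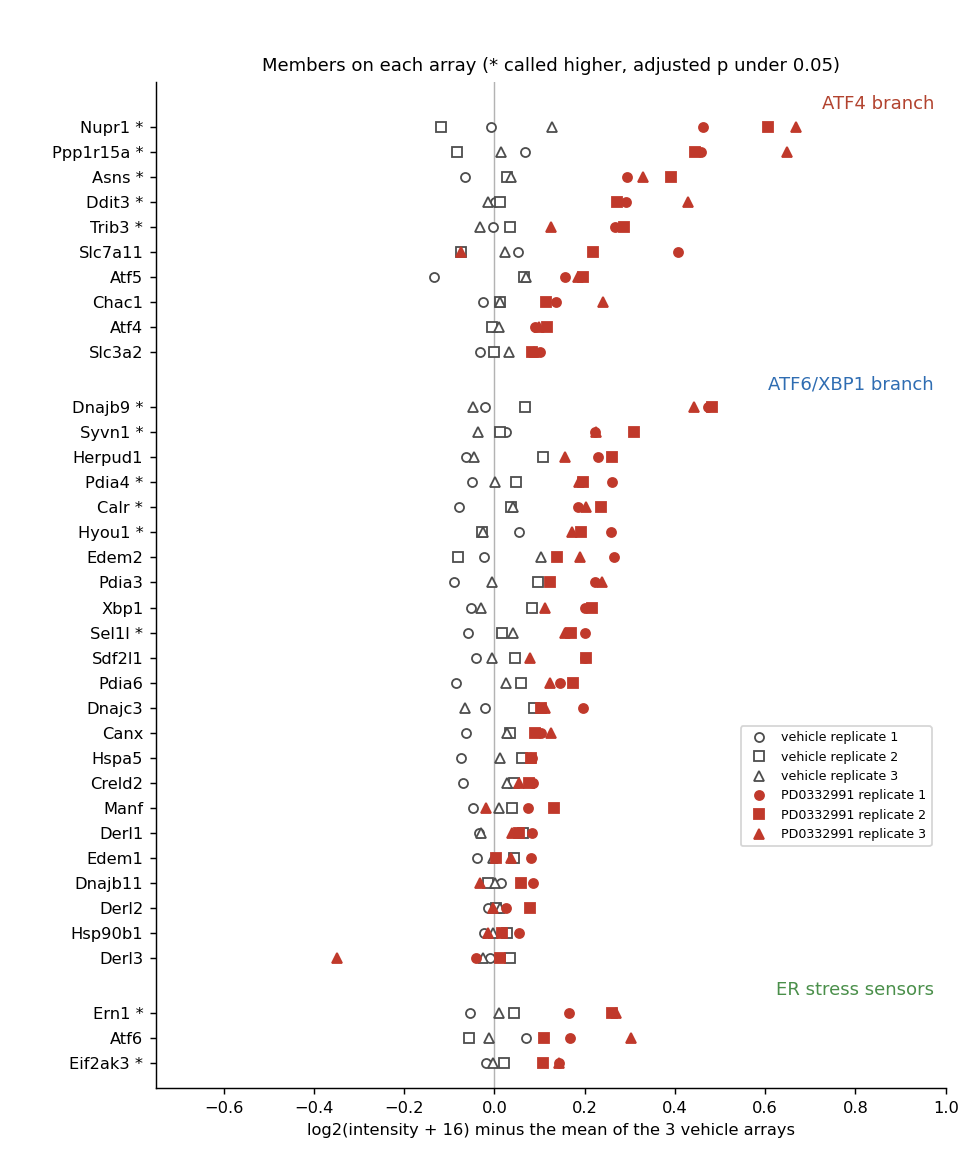
Each row is a member, with log2(intensity + 16) on each array minus the mean of the 3 vehicle arrays (x axis), open symbols for vehicle and filled symbols for PD0332991, shaped by replicate number; an asterisk marks the 13 members that rose. The filled symbols lie to the right of all open ones in 28 of the 36 rows, and in the ATF6/XBP1 branch vehicle replicate 2 (open squares) is the rightmost vehicle array in 16 of 23 rows.

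In the ATF4 branch 5 of 10 genes rose, and the other 5 had log2 fold changes of 0.09 to 0.18. The 5 were Nupr1, Ppp1r15a, Asns, Ddit3 and Trib3. The summed intensity of the branch was 17840 to 18750 on the vehicle arrays and 21520 to 22540 on the PD0332991 arrays. Spike-in centring lowers the fold changes of all genes by the same amount, brings their median to -0.12 and also alters the spread between arrays. It left 1 of the 5 calls and a branch median of 0.078, with Atf4 and Slc3a2 below 0.

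Nupr1, a small stress-induced chromatin protein, changed most. Its intensity was 4177, 3867 and 4588 on the vehicle arrays and 5791, 6399.5 and 6679 on the PD0332991 arrays. The groups were well apart, and the gene rose 1.49-fold (log2 fold change 0.58, SE 0.08, adjusted p = 0.00691). Ppp1r15a encodes GADD34, which directs a phosphatase to eIF2alpha and so ends the translational block. Its intensity was 267, 239 and 256 with vehicle and 354, 351 and 407 with PD0332991. This was a 1.43-fold rise (log2 fold change 0.52, SE 0.07, adjusted p = 0.00623) with no overlap between the groups.

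Asns, asparagine synthetase and a textbook target of ATF4, had intensities of 1852, 1977 and 1988 with vehicle and 2379, 2547 and 2439 with PD0332991. It rose 1.26-fold (adjusted p = 0.00615), and its promoter is among those printed above. Ddit3 encodes CHOP, the factor that links prolonged ER stress to cell death. It measured 819.6, 827 and 811 on the vehicle arrays, an SD of 7.94, and 1007, 992 and 1108 on the PD0332991 arrays. Its rise was also 1.26-fold (log2 fold change 0.33, SE 0.05, adjusted p = 0.00892). Trib3, a pseudokinase induced by ATF4 and CHOP, was nearer the threshold. Its intensity was 1318, 1355 and 1292 with vehicle and 1593, 1617 and 1443 with PD0332991 (1.17-fold higher, adjusted p = 0.036), and PD0332991 replicate 3 was the closest to the vehicle arrays. Trib3 kept its call only when the array left out was PD0332991 replicate 3, while those of the other 4 genes held without any 1 array.

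Atf4, the regulator itself, did not pass the test on its brightest probe set. It had intensities of 4329, 4320.1 and 4369 with vehicle and 4621, 4705 and 4645 with PD0332991, a 1.07-fold difference that did not pass (log2 fold change 0.10, SE 0.03, adjusted p = 0.0766). All treated arrays were above all vehicle arrays, by a narrow margin. A dimmer probe set, whose name marks it as matching a single gene, gave 0.17 on the log2 scale. Atf4 was called on it when such unique probe sets were preferred (adjusted p = 0.0452), where the branch count was 6 and 8.88% of all genes rose, but not when all probe sets were tested together (adjusted p = 0.0511). The brightest probe set was called with a pseudocount of 64, on the brighter genes alone and with the trend and robust settings (adjusted p from 0.0040 to 0.0424). Chac1, which degrades glutathione and is an early target of ATF4, had a log2 fold change of 0.16 (adjusted p = 0.0566) and Atf5, a related factor, 0.18 (adjusted p = 0.112). Slc3a2 and Slc7a11 encode the heavy and light chains of the cystine-glutamate exchanger. Slc3a2 had intensities of 3047 ± 67.2 and 3245 ± 22.8 (SD, n = 3 each, adjusted p = 0.131). Slc7a11 was dim and its groups overlapped, at 43.3 ± 2.69 and 51.9 ± 11.2 (SD, n = 3 each, adjusted p = 0.372).

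In the ATF6/XBP1 branch 6 of 23 genes rose (26.1%): Dnajb9, Syvn1, Pdia4, Hyou1, Calr and Sel1l. The other 17 had log2 fold changes between -0.13 and 0.22, and in 10 of them the groups did not overlap. Over the branch every treated array was above every vehicle array in 16 of 23 genes, beside 19.3% of all genes. The summed intensity was 58640 to 62880 on the vehicle arrays and 65470 to 66930 on the PD0332991 arrays. No member of the branch rose after spike-in centring (of all 36 members 3 were higher at an unadjusted p under 0.05 and 0 lower, beside 3.34% and 21.3% of all genes). Its median log2 fold change was then 0.020, where that of all genes was -0.12.

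Among the chaperones and co-chaperones, Dnajb9 stood first. It encodes ERdj4, a J-domain partner of the chaperone BiP and a target of spliced XBP1. Its intensity was 895, 953 and 878 with vehicle and 1267, 1276 and 1239.9 with PD0332991, groups far apart beside their spread. The rise was 1.38-fold (log2 fold change 0.47, SE 0.04, adjusted p = 0.00146), the smallest p of all members. Hyou1, a large chaperone of the HSP70 family, measured 662, 625 and 626 with vehicle and 765, 731 and 720.4 with PD0332991 (1.15-fold higher, adjusted p = 0.0234). Calr, the calcium-binding lectin chaperone calreticulin, measured 4829.5, 5236 and 5249 with vehicle and 5804, 6014 and 5873 with PD0332991 (1.16-fold higher, adjusted p = 0.0283). Vehicle replicate 1 was the lowest array for Calr.

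Hspa5 and Hsp90b1, chaperones often used as markers of ER stress, did not pass the test. Hspa5 encodes BiP, the chaperone that holds the sensors inactive in unstressed cells and the usual marker of ER stress. Its intensity was 7025, 7721 and 7466 on the vehicle arrays and 7842, 7831 and 7826 on the PD0332991 arrays (log2 fold change 0.08, SE 0.05, 95% interval -0.03 to 0.19, adjusted p = 0.274). The treated arrays were nearly equal to each other (SD 8.38) and a little above vehicle replicate 2, whereas the vehicle arrays spread more widely (SD 352). With the trend and robust settings Hspa5 passed (adjusted p = 0.0459). Hsp90b1, the HSP90 of the ER, had a log2 fold change of 0.02 (95% interval -0.07 to 0.11, adjusted p = 0.786). Both genes carry the ER stress element, Hsp90b1 at 2 places. Canx (calnexin), Dnajc3 and Sdf2l1 had log2 fold changes of 0.11, 0.14 and 0.16 with adjusted p of 0.134, 0.145 and 0.0784. Manf and Creld2, secreted proteins induced by ER stress, and the co-chaperone gene Dnajb11 lay between 0.04 and 0.07 (adjusted p from 0.313 to 0.615).

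Among the disulfide isomerases, Pdia4 rose. It measured 1595, 1705 and 1652 with vehicle and 1981, 1893 and 1879.9 with PD0332991 (log2 fold change 0.21, SE 0.04, adjusted p = 0.020). Pdia3 and Pdia6 had values of 0.19 and 0.15 that did not pass (adjusted p = 0.0821 and 0.093).

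In the degradation machinery both parts of the central ubiquitin ligase rose. Syvn1 encodes the ligase HRD1, and Sel1l its partner, which recruits substrates. Syvn1 had intensities of 667, 659.9 and 637 with vehicle and 767, 815 and 767 with PD0332991 (1.19-fold higher, log2 fold change 0.25, SE 0.04, adjusted p = 0.011). Sel1l had 1780.2, 1877 and 1909 with vehicle and 2133, 2089.5 and 2069.5 with PD0332991 (1.13-fold higher, adjusted p = 0.0321). Neither gene's groups overlapped. Herpud1, a membrane protein of the same complex, averaged 668 ± 45.2 with vehicle and 778 ± 29.0 with PD0332991 (SD, n = 3 each) and missed the threshold (adjusted p = 0.056). The derlins, which take part in moving substrates out of the ER, and the EDEM proteins, which trim glycans of misfolded proteins, were not called: Derl1, Derl2 and Edem1 were between 0.03 and 0.06 and Edem2 was at 0.20 (adjusted p = 0.0799). Derl3 was the only member below 0, at -0.13 (adjusted p = 0.453), with a low intensity of 99.1 ± 2.48 with vehicle and 90.2 ± 13.8 with PD0332991 (SD, n = 3 each) and overlapping groups.

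Xbp1 itself had intensities of 2765, 3039 and 2810.3 with vehicle and 3302, 3338 and 3099.7 with PD0332991. The groups did not overlap, but vehicle replicate 2 came close to the lowest treated array, and the 1.13-fold difference did not pass (log2 fold change 0.18, SE 0.05, adjusted p = 0.073).

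Calr and Sel1l lost their calls whichever of the 6 arrays was left out, and Hyou1 and Pdia4 in 4 of the 6 cases each. Those of Dnajb9 and Syvn1 held in all 6. The count for the branch was 3 without vehicle replicate 1 (6.02% of all genes higher), and 2 without vehicle replicate 3, PD0332991 replicate 1 or PD0332991 replicate 2 (6.44%, 6.59% and 6.21%). It was 4 without vehicle replicate 2 or PD0332991 replicate 3 (6.88% and 6.54%).

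Vehicle replicate 2, with control probe sets like those of the treated arrays, is set beside each branch. In the ATF6/XBP1 branch it was the highest vehicle array for 16 of 23 genes, in the ATF4 branch for 2 of 10, and over all genes for 37.9%. Set against that array alone, an alternative chosen after the data were seen, the median log2 fold change of the ATF6/XBP1 branch was 0.087 in place of 0.15, and 19 of 23 genes were positive. In the ATF4 branch it was 0.22 in place of 0.21, and all 10 genes were positive. With 1 vehicle array, assumed to vary like the treated ones, limma called no member, beside 0.643% of all genes higher and 2.23% lower. At an unadjusted p under 0.05, 10 members were higher and 0 lower, beside 11.5% and 13.2% of all genes. No test of the difference between the branches was made.

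**Figure D3:**
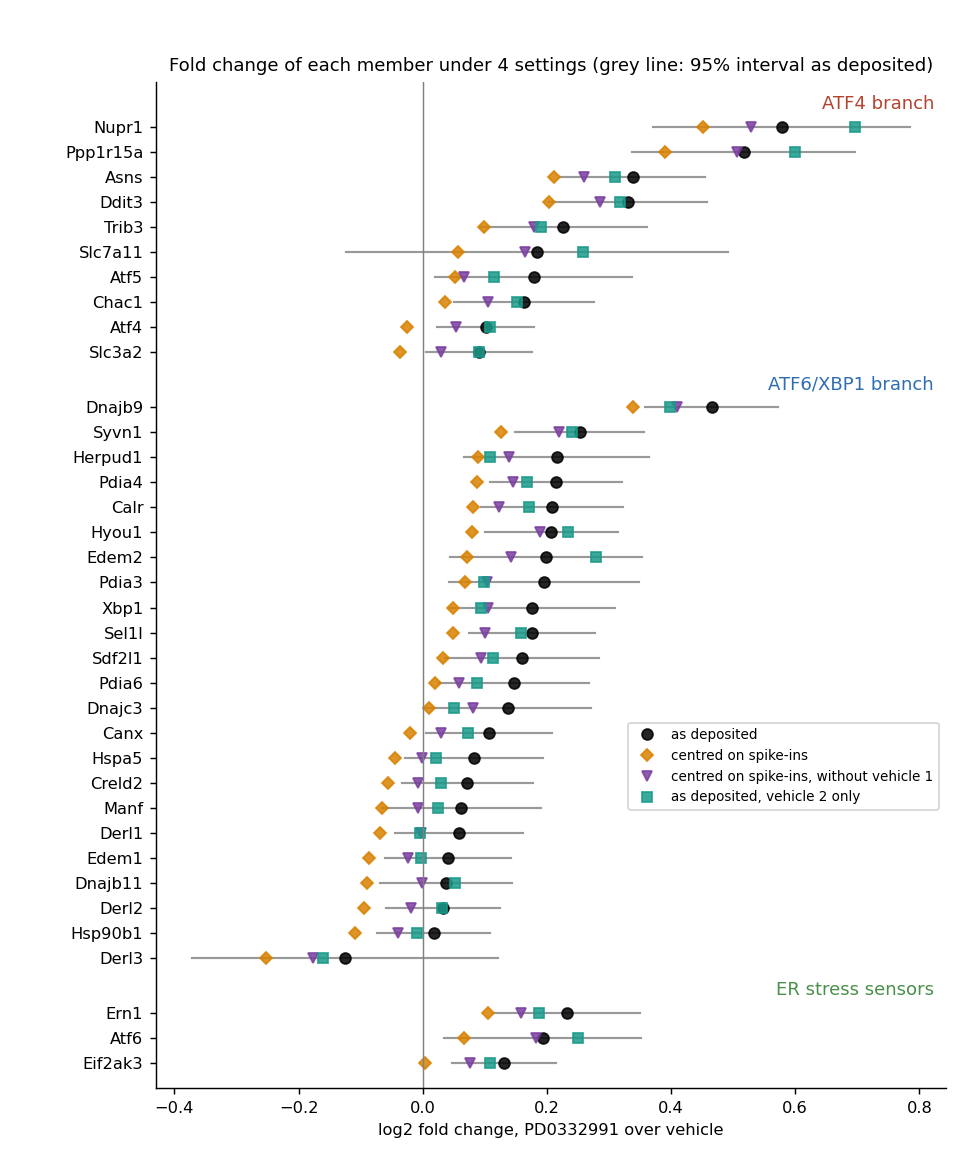
Each row is a member, with its log2 fold change (x axis) under 4 settings: arrays as deposited (black, with the 95% interval from limma in grey), centred on the spike-ins with all arrays (orange) or without vehicle replicate 1 (purple), and as deposited against vehicle replicate 2 alone (green). Nupr1, Ppp1r15a, Asns, Ddit3 and Dnajb9 lie above 0.2 in all 4 settings, while Hspa5, Hsp90b1 and the derlin genes lie on both sides of 0 or below it.

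Of the 3 sensors, Ern1 and Eif2ak3 rose. Ern1 had intensities of 675, 724 and 707 with vehicle and 789, 844 and 849 with PD0332991 (1.17-fold higher, log2 fold change 0.23, SE 0.05, adjusted p = 0.0224). Eif2ak3 had 2661, 2739 and 2692 with vehicle and 2979, 2906 and 2982 with PD0332991 (log2 fold change 0.13, SE 0.03, adjusted p = 0.0438). The groups of both genes were apart, but Eif2ak3 lost its call whichever array was left out, and Ern1 in 4 of 6 cases. Without vehicle replicate 1, vehicle replicate 3, PD0332991 replicate 2 or PD0332991 replicate 3 no sensor was called. Atf6 measured 554, 506 and 522 with vehicle and 593, 570.0 and 653 with PD0332991, a difference of 0.19 that did not pass (adjusted p = 0.0921).

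Members with and without an element in the promoter can be set side by side. In the ATF6/XBP1 branch the 9 genes with an ER stress element had a median log2 fold change of 0.11 with 2 that rose, Calr and Syvn1, and the 11 without it, among them Herpud1 with the second form, had 0.18 with 3 that rose. In the ATF4 branch the 4 genes with a C/EBP-ATF element had a median of 0.26 with 2 that rose, and the 6 without it 0.20 with 3 that rose. These are descriptions of small groups, with no test.

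Where a gene had several probe sets, they mostly moved alike. Of the 82 probe sets 22 were called higher when each was tested on its own, and none lower (1 at an unadjusted p under 0.05, of Eif2ak3), beside 7.87% of all probe sets higher and 9.7% lower, and 73 had a positive log2 fold change. Both probe sets of Asns, Nupr1 and Trib3 and all 3 of Calr were called higher. For Ddit3 the dimmer probe set gave 0.21 on the log2 scale (adjusted p = 0.0698). Canx and Derl2, not called on their brightest probe sets, each had a dimmer one that was called, with 0.29 (adjusted p = 0.0058) and 0.23 (adjusted p = 0.0293). So did Atf6 with 0.20 (adjusted p = 0.0183), Slc7a11 with 0.26 (adjusted p = 0.0369) and Herpud1 with 0.19 (adjusted p = 0.0498). That of Slc7a11 was very dim, at 15.4 with vehicle and 21.7 with PD0332991, about the pseudocount of 16. The probe sets of Eif2ak3 disagreed: the dim ones, at vehicle intensities of 84.5 and 46.9, had 0.02 and -0.23, and the mean of its probe sets gave -0.027. In this test its bright probe set was not called (adjusted p = 0.0632). Dim probe sets of other called members also stayed near 0 or below it, at -0.08 for Sel1l, -0.01 for Pdia4, -0.02 for Ern1 and 0.04 for Hyou1, and none of these passed. On the mean of their probe sets 11 members were called, beside 7.65% of all genes. These held 8 of the 13, without Sel1l, Pdia4, Hyou1, Ern1 and Eif2ak3.

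**Figure D4:**
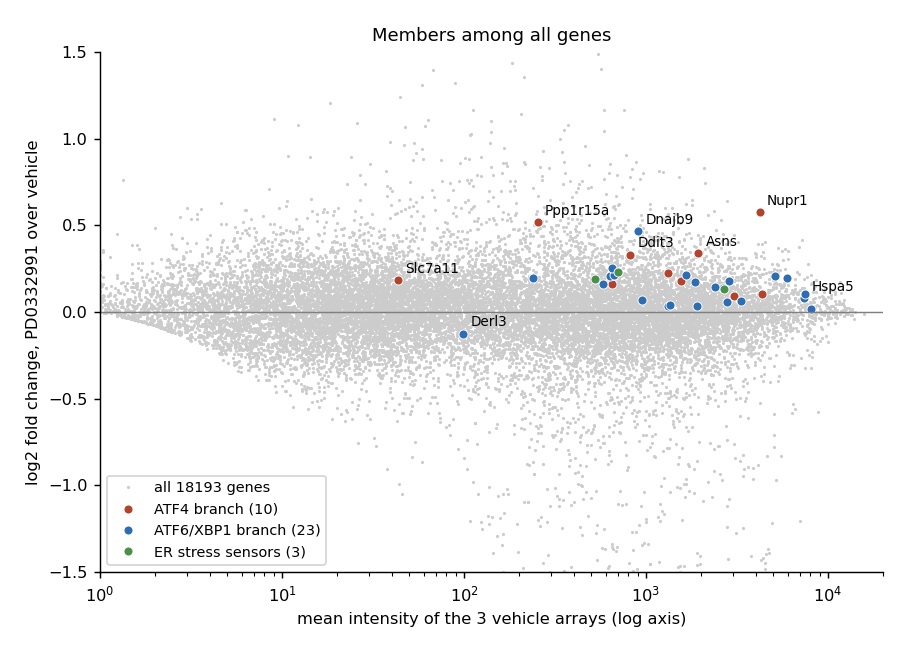
The log2 fold change (y axis) is plotted against the mean intensity of the 3 vehicle arrays (x axis, log scale) for all 18193 genes in grey, of which 86 lie outside the plotted range, and for the members in colour by branch. Most members lie in the bright part of the plot and slightly above 0, with Nupr1, Ppp1r15a and Dnajb9 the highest and Derl3 the only one below 0.

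Other genes of these pathways, listed by role, were counted to set the members in context. Of 133 measured genes in 8 lists, 33 rose (24.8%) and 13 fell (9.77%), beside 9.81% and 11.2% of all genes. The lists are bright, with median brightness percentiles from 56.8 (amino acid transporters) to 95.8 (translocon and signal peptidase). Among all genes above median brightness 15.4% rose and 19.1% fell. Centred on the spike-ins, 1 of the 133 rose and 5 fell, beside 1.32% and 8.11% of all genes. Without vehicle replicate 1 the numbers were 8 and 4, beside 2.26% and 6.37%. Among other targets of ATF4 and CHOP 8 of 23 rose and 2 fell. Vegfa, the vascular growth factor, was 1.36-fold higher (adjusted p = 0.00155) and Tnfrsf10b, a death receptor, 1.32-fold (adjusted p = 0.00285), while the pro-apoptotic gene Bcl2l11 was 1.19-fold lower and Psat1, of serine synthesis, 1.11-fold lower (adjusted p = 0.00959 and 0.0411). Of 19 cytosolic aminoacyl-tRNA synthetases 3 rose, among them Nars (1.17-fold) and Rars (1.12-fold), and Kars was 1.12-fold lower. Of 12 amino acid transporters 1 rose and 1 fell, beside 9.81% and 11.2% of all genes. The neutral amino acid carrier Slc1a4 rose 1.38-fold and its relative Slc1a5 fell 1.36-fold (adjusted p = 0.00666 and 0.0146).

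Of the other kinases of eIF2alpha, Eif2ak2, which encodes the double-stranded RNA sensor PKR and is itself induced by interferon, rose 1.39-fold (adjusted p = 0.000807). Eif2ak4, which encodes GCN2, and Eif2ak1 were not called, with log2 fold changes of 0.03 and -0.06 (adjusted p = 0.823 and 0.549). In the same list of 7 measured genes, Ppp1r15b, the constitutive counterpart of Ppp1r15a, fell from 2352 ± 62.4 to 1901 ± 44.5 (SD, n = 3 each, 1.24-fold, adjusted p = 0.00443). The phosphatase subunit gene Ppp1cc was 1.17-fold lower (adjusted p = 0.00763). The inducible and the constitutive eIF2alpha phosphatase subunits thus changed in opposite directions.

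Within the ER, 8 of 25 other folding and glycan enzymes rose and 2 fell. The prolyl isomerase gene Fkbp7 rose 1.38-fold and Sil1, the exchange factor of BiP, 1.32-fold (adjusted p = 0.000969 and 0.00122). Fkbp2 was 1.19-fold and the ER lectin gene Mlec 1.17-fold lower. Of 19 other genes of ER-associated degradation 7 rose and 1, the ubiquitin-conjugating enzyme gene Ube2j2, fell (1.13-fold). Among the 7 were Erlec1, a lectin of the HRD1 complex (1.25-fold, adjusted p = 0.00296), and Selenos, which helps to tie the segregase p97 to the ER membrane (1.16-fold, adjusted p = 0.00877). Of 17 translocon and signal peptidase genes, with a median brightness percentile of 95.8, 3 rose and 1 fell, beside the same 15.4% and 19.1%. Ssr4 and the signal recognition particle receptor gene Srpr were 1.17-fold higher each and the peptidase subunit gene Spcs3 1.18-fold lower.

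In the list of membrane-bound transcription factors, their proteases and NF-Y, Creb3l2 and Creb3, relatives of ATF6 that are released by the same proteases, rose 1.34-fold and 1.29-fold (adjusted p = 0.00162 and 0.00178). The 3 genes of NF-Y, which binds the CCAAT part of the ER stress element, fell. Nfyb was 1.29-fold and Nfyc 1.18-fold lower (adjusted p = 0.00263 and 0.012), and Nfya, named after its value was seen, 1.18-fold lower (adjusted p = 0.0261).

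Markers of other cells were mixed in level. Of 13 leukocyte markers 3 rose (Cd68, Ptprc and Adgre1), beside 9.81% of all genes. Ptprc was dim, at 11.6 with vehicle and 18.2 with PD0332991, about the pseudocount of 16. The summed intensity of the 13 markers was 650.5 to 735.2 with vehicle and 777.6 to 825.3 with PD0332991. Their group means ran from 1.33 for Cd3e to 308 for Cd68, and Adgre1, Csf1r and Cd8a lay between 105 and 126. Of 10 fibroblast markers 0 rose and 1 fell, beside 9.81% and 11.2% of all genes. Pdgfra fell from 174.5 to 117.0 (1.43-fold, adjusted p = 0.0038). Postn averaged 2204 with vehicle and 2084 with PD0332991 and was not called. Dcn was at 105 and 106, and the others had group means from 5.14 (Pdgfrb) to 29.9 (Col1a1). Of 6 markers of plasma cells, a secretory cell type rich in ER, 1 rose, beside 9.81% of all genes. It was Jchain, from 12.9 to 21.4, about the pseudocount of 16. Tnfrsf17, Mzb1, Irf4 and Prdm1, not called, had log2 fold changes of -0.12, -0.09, -0.05 and 0.02, and the median of the list was -0.011. Sdc1, which epithelium also expresses and which was not called, made up most of the sum. The part of such cells in the changes of the members was not tested.

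**Figure D5:**
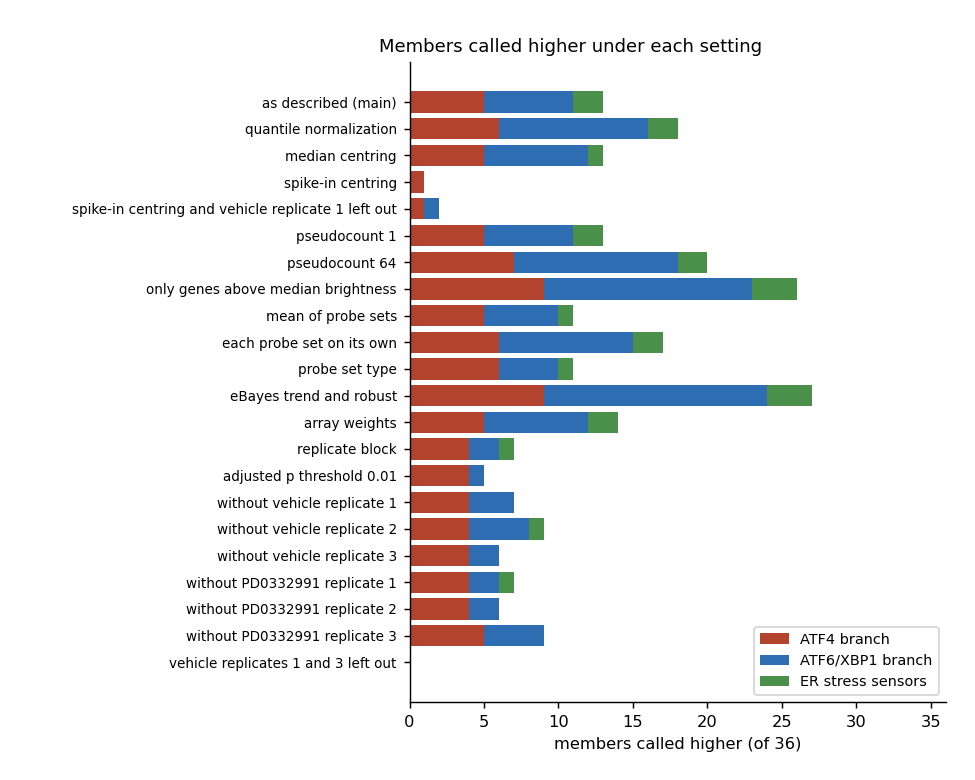
Bars give the number of the 36 members called higher by limma (x axis) under each setting of the analysis (rows), split by branch. The share of all tested genes called higher differed too: 9.81% in the setting described, 1.32% after spike-in centring and 24.9% on brighter genes alone. The count is 13 in the setting described, 1 and 2 after spike-in centring, 0 against vehicle replicate 2 alone, 27 when the spread is modelled by brightness, and between 5 and 26 otherwise.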

How the data were processed

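Total RNA of V720 cells (3 vehicle and 3 PD0332991 cultures) was biotin-labelled and hybridized to Affymetrix arrays, per the labels' protocols. The authors' deposited table holds 1 linear intensity per probe set and array for 45101 probe sets. How probe sets were summarised and scaled is not given in the sources used here. After removal of 64 control probe sets, 34945 had exactly 1 gene symbol in the platform annotation (932 had several and 9160 none), and they named 18193 genes, of which 18032 matched the RefSeq table (GRCm38.p6). A gene was represented by its probe set with the highest mean log2 over the 6 arrays.

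Intensities were analysed as log2(intensity + 16), on which scale a fold change understates that of dim genes. Groups were compared with lmFit and eBayes of limma 3.58.1 (R 4.3.3) in a two-sided test. P-values were adjusted by the Benjamini-Hochberg method across every gene tested, and an adjusted p under 0.05 was a call, without a block or a filter. The procedure was tested on simulated data with 200 changed genes. It recovered 16% of true log2 changes of 0.25 and 58% of those of 0.5, with 3 false calls among 131. In the real data 3820 genes were called, so that recovery there may differ. A member that did not pass may still have changed. The number of arrays limits the precision. Tables and plots were made with pandas 2.3.3 and matplotlib 3.10.9.

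The members, the lists and the tests were chosen with earlier results of these data known. Values on every array are given for called members of the ATF4 branch, for the 10 called members of the ATF6/XBP1 branch with the smallest p (6 were called) and for Atf4, Ddit3, Xbp1, Hspa5, Ern1, Eif2ak3 and Atf6. Of each pathway list at most 2 higher and 2 lower called genes, those with the smallest p, are named. Nfya, Eif2ak4 and Eif2ak1 are named beyond this rule, with their values seen. The same holds for genes of the marker lists. Alternatives covered scaling, pseudocount, filter, probe set choice, variance model, a replicate block, the threshold and left-out arrays.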

Additional observations from a re-analysis of the deposited data

How the results depend on the processing

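None of the members was called lower under any alternative tried. After spike-in centring 13 of 23 ATF6/XBP1 genes and 8 of 10 ATF4 genes kept a positive log2 fold change. With vehicle replicate 1 also left out, 14 and 10 did. The counts that rose varied as follows. Centred on the spike-ins, 1715 genes were called in all, with 0 in the ATF6/XBP1 branch and 1 in the ATF4 branch, and branch medians (log2) of 0.020 and 0.078. With vehicle replicate 1 also left out these were 1571, 1 and 1, and the ATF6/XBP1 median was 0.080. The median of all genes was -0.12 and -0.045 under these settings. The replicate block gave 2047 calls in all and 2 in the ATF6/XBP1 branch. Samples of the same number deviated together no more than other pairs (correlations of -0.0515 to 0.0497, against -0.058 to 0.0508). With 3 arrays per group this cannot show whether the numbers mark a shared batch. An adjusted p of 0.01 gave 1703 and 1. The ATF6/XBP1 count was 10 after quantile normalization and 11 with a pseudocount of 64, where 12.2% and 11.9% of all genes were higher. It was 14 of 22 tested on brighter genes alone (24.9% of those genes higher). With trend and robust settings it was 15 of 23 (13.7% of all genes higher). The ATF4 count was 9 in both cases, of 9 tested on brighter genes and of 10 otherwise. Against vehicle replicate 2 alone, chosen after the data were seen, there were 523 calls, 0 in either branch, and an ATF6/XBP1 median of 0.087. Leaving out 1 array at a time gave 2497 to 2683 calls, 2 to 4 and 4 to 5 in the branches, and medians of 0.13 to 0.18 and 0.19 to 0.28. Eif2ak3 was at -0.027 on the mean of its probe sets. Spike-in centring lowers all fold changes by one amount by construction. It also shifts each array by its own spike-in mean (9.74 on vehicle replicate 1, 9.94 to 10.05 on the others). The spread within a group is thereby altered too, and left-out arrays leave fewer samples. The cause of the other differences was not tested. Fibroblast, endothelial and adipocyte markers had 0, 0 and 0 genes higher and 1, 1 and 0 lower, and of 10 epithelial markers 1 rose and 1 fell.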
